A study of Mus musculus with 12 samples.

Results

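Smooth muscle contractile genes were followed here as 8 named genes of the deposited table, namely Acta2, Actg2, Tagln, Cnn1, Smtn, Myh11, Myh10 and Des. They were chosen by gene name, and each name matched 1 of the 26190 genes of the table, so that all 8 were measured in all 12 libraries. The study took atria and ventricles from hearts of mouse embryos at E11.5 (E11.5H), and dissected heart organoids (HOs) on day 13 of culture into atrium-like and ventricle-like parts, with 3 replicates in each of the 4 groups. The labels give the strain C57BL/6 for all samples, name no mutation, and total RNA was used for the libraries. HOs were grown from embryoid bodies of mouse embryonic stem cells on a laminin-entactin gel with FGF4, and received BMP4, the GSK3 inhibitor BIO and LIF late in culture, whereas E11.5H developed in the embryo, so that age, culture and these factors cannot be told apart between the tissues. The methods name cell lines of C57BL/6 and of a C57BL/6 × JF1 hybrid without saying which gave these HOs, and call the samples biological triplicates, so that the p-values describe the spread between these samples only. Libraries held 23971258 to 30540993 fragments assigned to genes, and HO replicates differed from each other more than E11.5H replicates did. In bulk RNA, fewer cells of a type and less RNA per cell cannot be told apart.

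Smooth muscle contracts when actin thin filaments slide along thick filaments of smooth muscle myosin, after phosphorylation of the myosin light chain. Transgelin, calponin and smoothelin bind the thin filaments, and desmin filaments link the contractile apparatus to the cell's attachment sites. Much of this set is also switched on in the early heart tube: embryonic cardiomyocytes transiently use the smooth muscle genes Acta2, Tagln and Cnn1, desmin is a general muscle filament, and Myh10 encodes a nonmuscle myosin of many embryonic cells. Myh11, the smooth muscle myosin heavy chain, is the most specific smooth muscle marker among the 8.

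The label was checked against that marker. Myh11 was the lowest of the 8 genes per transcript length in every library, at most 3.83 FPKM (fragments scaled to transcript length and library size), while Acta2 reached 1069.5 FPKM. In 3 of 12 libraries Myh11 had 0 fragments, which allows up to 0.106, 0.116 and 0.112 CPM (counts scaled to library size) by a count of 3 (counting error only). Levels of the other genes in these tissues were therefore measured alongside very little RNA of the defining smooth muscle myosin, and they are described below by gene and not as a measure of smooth muscle cells. Of all fragments in genes, the 8 genes took 0.468% to 0.547% in E11.5H libraries and 0.0395% to 0.227% in HO libraries. Acta2 alone supplied 45.3% to 58.3% of the members' fragments in E11.5H and 29.2% to 39.5% in HOs. Fold changes below are log2 values on the TMM scale, which sets libraries level by the bulk of their genes. Scaled to 16 cardiomyocyte genes instead, the negative values of HOs against E11.5H given below for Acta2, Tagln, Smtn, Myh10 and Des, called or not, turned positive, as described with the comparisons of HOs and E11.5H. The negative value of Myh11 in atrium-like parts against atria, which was not called, turned positive too.

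In GRCm38/mm10, Acta2 spans chr19:34240336-34255373 on the minus strand, Actg2 chr6:83512909-83536251 (minus), Tagln chr9:45929628-45936058 (minus), Cnn1 chr9:22099253-22109221 (plus), Smtn chr11:3517522-3539292 (minus), Myh11 chr16:14194527-14291408 (minus), Myh10 chr11:68691915-68816624 (plus) and Des chr1:75360292-75368579 (plus). The sequences of their transcripts are mostly their own. Of the distinct 50-base words in their GENCODE coding transcripts, 0% of Actg2 and Cnn1, 0.326% of Acta2, 0.391% of Myh11 and 0.84% of Myh10 also occur in another gene, so that the actins and myosins could be counted apart. Tagln is the exception, with 47.6% of its words shared, most of them with the antisense gene Gm48529. Smtn shares 10.3%, all of it with the gene Gm11946, and Des shares 5.81% with the antisense gene Gm15179. Since the use of strand in counting is not given in the sources used here, RNA of Tagln and of its antisense partner cannot be told apart. Tagln also overlaps Pcsk7, on the other strand, by 95 bases.

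Of the 8 genes, 5 have an entry in the RefSeq promoter table for GRCm38.p6, and 3 (Myh11, Tagln and Actg2) do not. The 250 bases before the start are shown for the 4 of 8 genes that fell in ventricle-like parts against ventricles, where 7.35% of all genes tested did, as the members called lower there. Capitals mark CATTCC on either strand (GGAATG on the other), the core of the muscle MCAT element, and near-matches of the CArG box, the binding sequence of serum response factor, with 1 base off. Positions count back from the start, with the last base before it at -1.
Acta2 (chr19:34255374-34255623, minus strand): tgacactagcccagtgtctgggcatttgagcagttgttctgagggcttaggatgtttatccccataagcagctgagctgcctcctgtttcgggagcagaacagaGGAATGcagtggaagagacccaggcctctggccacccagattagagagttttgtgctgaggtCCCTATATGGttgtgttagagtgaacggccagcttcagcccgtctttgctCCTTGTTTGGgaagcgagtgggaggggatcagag
Cnn1 (chr9:22099003-22099252, plus strand): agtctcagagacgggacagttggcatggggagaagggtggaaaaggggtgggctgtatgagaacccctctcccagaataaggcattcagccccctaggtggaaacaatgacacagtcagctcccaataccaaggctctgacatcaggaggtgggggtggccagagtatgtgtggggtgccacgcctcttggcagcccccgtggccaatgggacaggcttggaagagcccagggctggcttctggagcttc
Myh10 (chr11:68691665-68691914, plus strand): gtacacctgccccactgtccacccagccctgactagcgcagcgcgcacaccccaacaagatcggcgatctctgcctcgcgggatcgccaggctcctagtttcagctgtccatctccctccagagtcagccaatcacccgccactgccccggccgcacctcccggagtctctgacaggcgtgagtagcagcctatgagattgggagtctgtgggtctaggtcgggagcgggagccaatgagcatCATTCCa
Des (chr1:75360042-75360291, plus strand): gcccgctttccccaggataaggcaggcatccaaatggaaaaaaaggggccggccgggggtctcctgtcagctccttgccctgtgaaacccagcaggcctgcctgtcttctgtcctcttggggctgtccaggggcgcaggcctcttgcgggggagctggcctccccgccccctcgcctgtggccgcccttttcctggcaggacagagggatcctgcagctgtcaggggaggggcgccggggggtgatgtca

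Acta2 was the only one of the 5 with a near-match of the CArG box, and it had 2, from -84 to -75 and from -34 to -25. Such a near-match or a full box stood in 18.6% of all 32851 windows of this length, and a full box in 1.47%. None of the 5 members had a full box. The letters CATTCC occurred in Acta2 at -146, in Smtn at -222 and in Myh10 at -7, that is in 3 of 5 members, and in 12.6% of all windows. TATAAA on either strand occurred in 0 of 5 members and 12.4% of all windows. These matches describe the letters of the windows and not sites in use, and no match in Cnn1 and Des says only that the letters are not in these windows.

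Acta2, the α-actin of smooth muscle and of early cardiomyocytes, was the most abundant of the 8 genes in 11 of 12 libraries. Its level was 1069.5, 919.6 and 878 FPKM in the atria and 886, 876 and 726 FPKM in the ventricles of E11.5H. In HOs it was 50.3, 229 and 88.4 FPKM in atrium-like and 252, 298 and 116 FPKM in ventricle-like parts. All 6 HO libraries lay below all 6 E11.5H libraries, and within each tissue the chambers overlapped. Against atria, Acta2 of atrium-like parts was 7.29-fold lower (log2 fold change -2.87, SE 0.49, edgeR adjusted p = 0.00936) and against ventricles, that of ventricle-like parts was 3.98-fold lower (-1.99, SE 0.35, adjusted p = 0.0106). Without atrium-like replicate 2 the first value was -3.56. The second call was lost by a narrow margin without ventricle replicate 1 (-1.97, adjusted p = 0.0506) or 2 (-1.98, 0.0523). Between chambers the edgeR difference was 0.14 (95% interval -0.06 to 0.34, adjusted p = 0.364) in E11.5H and -0.77 (-2.13 to 0.59, adjusted p = 0.755) in HOs.

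Actg2, the γ-actin typical of enteric and other visceral smooth muscle, went the other way. It stood at 12.2, 14.2 and 9.25 FPKM in atria and at 3.34, 2.33 and 1.70 FPKM in ventricles of E11.5H. HO libraries held 16.7, 108 and 29.1 FPKM in atrium-like and 37.1, 114 and 15.4 FPKM in ventricle-like parts. Every HO library was above every E11.5H library, and every atrial library of E11.5H was above every ventricular one. Actg2 was 4.62-fold higher in atria than in ventricles of E11.5H (log2 fold change 2.21, SE 0.27, edgeR adjusted p = 0.000466), 4.55-fold higher in atrium-like parts than in atria (2.18, SE 0.62, adjusted p = 0.0404) and 21-fold higher in ventricle-like parts than in ventricles (4.39, SE 0.79, adjusted p = 0.0118). It was the only member called higher in HOs. The atrial call was lost with limma on log2(FPKM + 1) (1.60, adjusted p = 0.0877), with the replicate number as a block (adjusted p = 0.057), without atria replicate 1 (adjusted p = 0.126), 2 (0.112) or 3 (0.136) and without atrium-like replicate 3 (0.0594). Without atrium-like replicate 2, the highest of its group, the value was 1.17. The ventricular call was lost without ventricle replicate 1 (adjusted p = 0.0565), 2 (0.0678) or 3 (0.0636), with values of 4.19 to 4.65, and without ventricle-like replicate 2 the value was 3.35. The HO chambers overlapped, with a difference of -0.04 (-2.17 to 2.08).

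**Figure D1:**
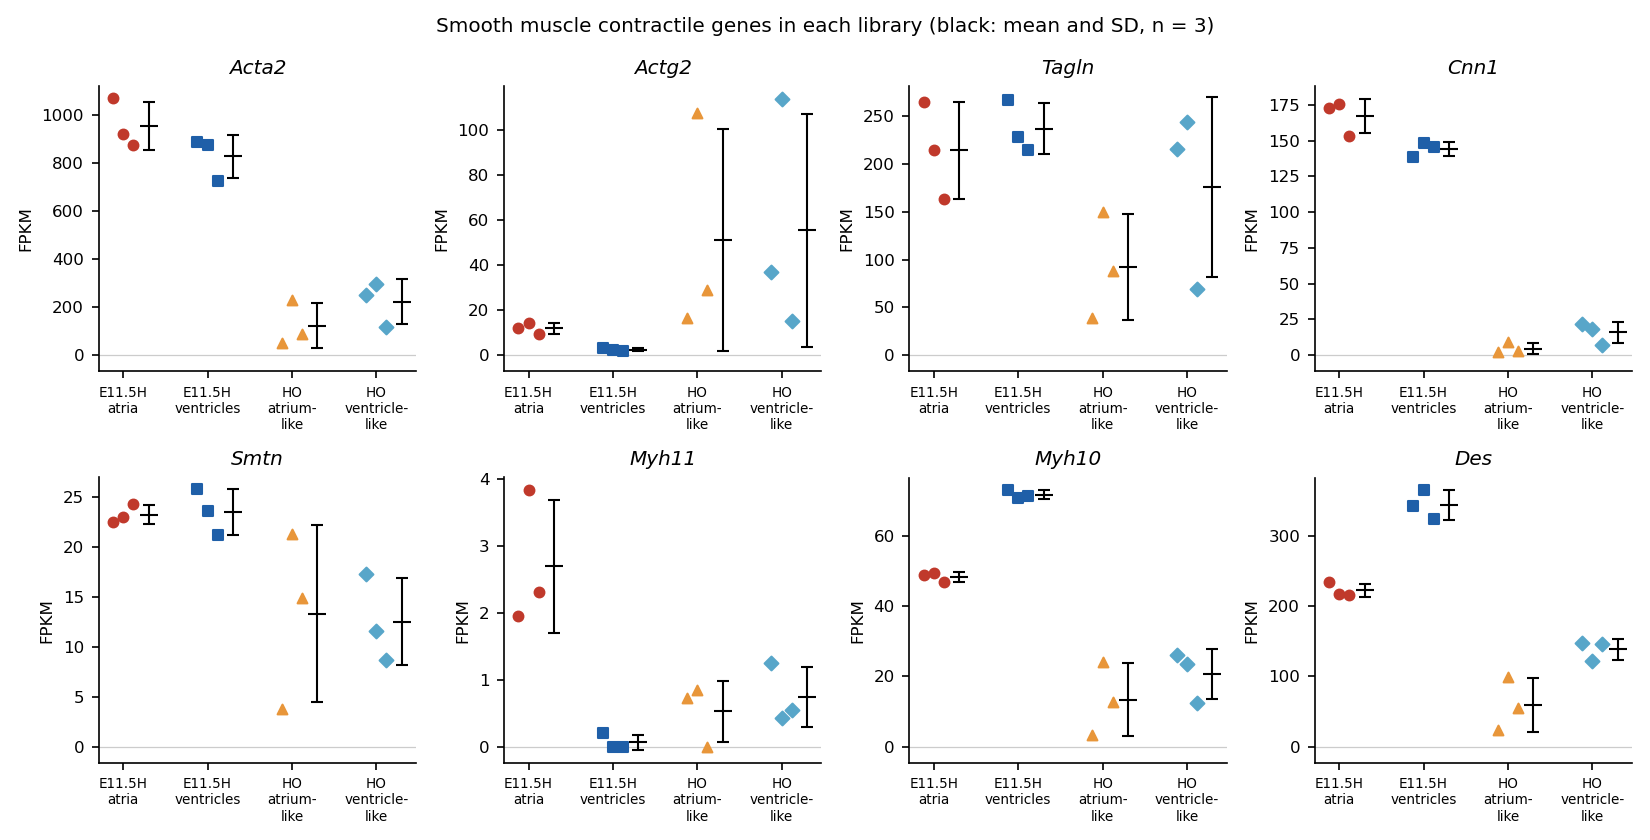
FPKM of the 8 genes in each of 12 libraries, 1 panel per gene with its own linear axis, points for libraries and black bars for the mean and SD of 3. Cnn1 stands far lower in both HO groups, Actg2 is higher there, and Myh11 stays under 4 FPKM throughout.

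Tagln, which encodes the actin-binding protein transgelin (SM22α), had smaller fitted differences between HOs and E11.5H than Acta2 or Actg2. The atria of E11.5H had 265, 215 and 163 FPKM and the ventricles 267, 229 and 215 FPKM. The atrium-like parts had 38.3, 149 and 87.9 FPKM and the ventricle-like parts 215, 244 and 68.9 FPKM. Atrium-like libraries lay below all atria, while ventricle-like and ventricular libraries overlapped in FPKM, although not in TMM-scaled CPM. No comparison of Tagln passed in edgeR, with -1.11 (95% interval -2.12 to -0.10, edgeR adjusted p = 0.0879) for atrium-like parts against atria, -0.52 (-1.58 to 0.54, adjusted p = 0.399) for ventricle-like parts against ventricles and -0.21 (-0.54 to 0.12) between the chambers of E11.5H. DESeq2 called the atrial value (-1.11, adjusted p = 0.0314), and without atrium-like replicate 2 it was -1.55 (edgeR adjusted p = 0.0192). Pcsk7, which overlaps it, had 5.08 to 8.30 FPKM in the 12 libraries.

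Cnn1, which encodes calponin 1, an actin-binding inhibitor of myosin's ATPase, showed the largest fall of the 8 genes in both comparisons of HOs with E11.5H. It had 173, 175 and 154 FPKM in atria and 139, 149 and 146 FPKM in ventricles of E11.5H. Only 1.92, 9.03 and 2.66 FPKM were left in atrium-like and 21.8, 18.3 and 7.29 FPKM in ventricle-like parts. Even the highest HO library was far below the lowest E11.5H library. The fall was 34.5-fold in atrium-like parts (log2 fold change -5.11, SE 0.58, edgeR adjusted p = 0.00339) and 9.72-fold in ventricle-like parts (-3.28, SE 0.41, adjusted p = 0.00412), and both calls held when any 1 library was left out. Without atrium-like replicate 2 the atrial value was -5.95. Atrium-like parts were lower than ventricle-like parts by 1.73 on the log2 scale, but their libraries overlapped and the adjusted p was 0.75 (unadjusted p = 0.0382). In E11.5H the chambers differed by 0.14 (-0.02 to 0.30), and their libraries did not overlap in FPKM but did in TMM-scaled CPM.

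Smtn, which encodes the cytoskeletal protein smoothelin of contractile smooth muscle, was even between embryonic chambers. Atria had 22.5, 23.0 and 24.4 FPKM and ventricles 25.9, 23.6 and 21.2 FPKM. Atrium-like parts had 3.81, 21.3 and 14.9 FPKM and ventricle-like parts 17.3, 11.6 and 8.65 FPKM. The HO libraries were lower than those of the matching chamber, although atrium-like replicate 2 came close. Smtn differed by -0.70 (95% interval -1.89 to 0.49, edgeR adjusted p = 0.318) between atrium-like parts and atria and by -0.999 (-1.64 to -0.36, adjusted p = 0.0351) between ventricle-like parts and ventricles, which passed on the adjusted p but lay just inside the fold limit of 1 on the log2 scale. It crossed that limit without ventricle-like replicate 1 (-1.34, adjusted p = 0.0102).

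Myh11, the smooth muscle myosin heavy chain, was the member with the widest chamber difference in E11.5H. It had 1.96, 3.83 and 2.31 FPKM in atria, from 459, 856 and 498 fragments, against 0.198, 0 and 0 FPKM in ventricles, from 42, 0 and 0 fragments. In atrium-like parts it had 0.732, 0.845 and 0 FPKM and in ventricle-like parts 1.26, 0.434 and 0.544 FPKM. The atria of E11.5H were above all other libraries, and the ventricle-like parts were above the ventricles. The fitted excess of atria over ventricles was 5.26 on the log2 scale (SE 0.90, edgeR adjusted p = 0.00356), a size that rests on the 42 fragments of ventricle replicate 1 and became 12.15 without it. DESeq2 gave 5.31 with adjusted p = 0.0943. Neither HO comparison passed, at -2.18 (95% interval -5.41 to 1.05, adjusted p = 0.254) for atrium-like parts and 3.43 (-0.90 to 7.76, adjusted p = 0.193) for ventricle-like parts. Leaving out atrium-like replicate 3, which had 0 fragments, gave -1.61 (adjusted p = 0.0445), and leaving out ventricle replicate 1 gave 10.27 (adjusted p = 0.0343).

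Myh10, the nonmuscle myosin heavy chain IIB, had the tightest replicates of the 8 genes in E11.5H. Atria had 49.1, 49.5 and 46.8 FPKM and ventricles 73.3, 70.9 and 71.4 FPKM. HO values were 3.33, 24.1 and 12.9 FPKM in atrium-like and 26.0, 23.6 and 12.4 FPKM in ventricle-like parts. The ventricles were highest, the atria next, and all HO libraries lower, without overlap between these 3 levels. The chamber difference of E11.5H was -0.64 (SE 0.06, edgeR adjusted p = 7.76e-05), inside the fold limit. Myh10 fell 3.71-fold in ventricle-like parts (-1.89, SE 0.28, adjusted p = 0.00662). Its fall in atrium-like parts missed the threshold (-1.76, 95% interval -3.13 to -0.39, adjusted p = 0.0584), which it passed without atrium-like replicate 1 (-1.35, adjusted p = 0.0118), the lowest of its group, or 2 (-2.38, adjusted p = 0.0147), the highest. With all libraries kept it was also called lower by DESeq2 (adjusted p = 0.00611), by limma on log2(FPKM + 1) (0.0326) and log2(FPKM + 0.1) (0.0338) and in the fit over all 12 libraries (0.0174).

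Des encodes desmin, the intermediate filament protein of all muscle types. E11.5H atria had 234, 217 and 216 FPKM and ventricles 342, 366 and 324 FPKM. Atrium-like parts had 23.2, 99.1 and 54.6 FPKM and ventricle-like parts 147.5, 122 and 146 FPKM. Des was the only member with 4 levels in FPKM that did not overlap, from ventricles through atria and ventricle-like parts down to atrium-like parts. The chamber difference was -0.70 (SE 0.07, edgeR adjusted p = 8.88e-05) in E11.5H, inside the fold limit. In HOs it was -1.14 (95% interval -2.17 to -0.11), with an unadjusted p of 0.035 and an adjusted p of 0.75. Des fell 3.51-fold in atrium-like parts (-1.81, SE 0.42, adjusted p = 0.0218) and 2.64-fold in ventricle-like parts (-1.40, SE 0.13, adjusted p = 0.00198). The atrial call was lost without atria replicate 1 (adjusted p = 0.0779), 2 (0.071) or 3 (0.0698) and without atrium-like replicate 3 (0.0649), with values of -1.76 to -1.85.

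The chamber comparison of E11.5H asks which of these genes differ between the embryonic atrium and ventricle. To be called, a gene had to pass an adjusted p of 0.05 and to differ by more than 1 on the log2 scale in either direction. Of 8 members, 2 were called (Myh11 and Actg2), both higher in atria, where 4.9% of 14536 genes tested were called (2.92% higher and 1.97% lower in atria). On the adjusted p alone, 4 members passed against 13.6% of genes, with Myh10 and Des lower in atria, which scaling to cardiomyocyte genes reduced to -0.12 (adjusted p = 0.279) and -0.18 (0.0666). Libraries of the chambers did not overlap in TMM-scaled CPM for 4 members and 32.6% of genes. The median member difference was 0.03, and that of all genes 0.01. In the fit over all 12 libraries, where the HO spread enters, neither Myh11 (adjusted p = 0.486) nor Actg2 (0.425) passed.

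The same comparison in HOs called 0 of 8 members, and 0% of 15703 genes. At an unadjusted p under 0.05, 2 members (Cnn1 and Des) and 889 genes passed, or 5.66%. DESeq2 called 56 genes and limma on FPKM 0, none of them members. Des alone had libraries that did not overlap in TMM-scaled CPM, against 12% of genes. The difference of the chamber differences between HOs and E11.5H was called for 0 of 8 members and 0.152% of 16494 genes. Its values lay between -5.62 for Myh11 (unadjusted p = 0.0402, edgeR adjusted p = 0.411) and 0.29 for Smtn, and Cnn1 had -1.84 (unadjusted p = 0.0213, adjusted p = 0.356). These 2 members passed at an unadjusted p under 0.05, as did 11.7% of genes. Without atrium-like replicate 2, Cnn1 had -2.66 with an adjusted p of 0.0396.

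**Figure D2:**
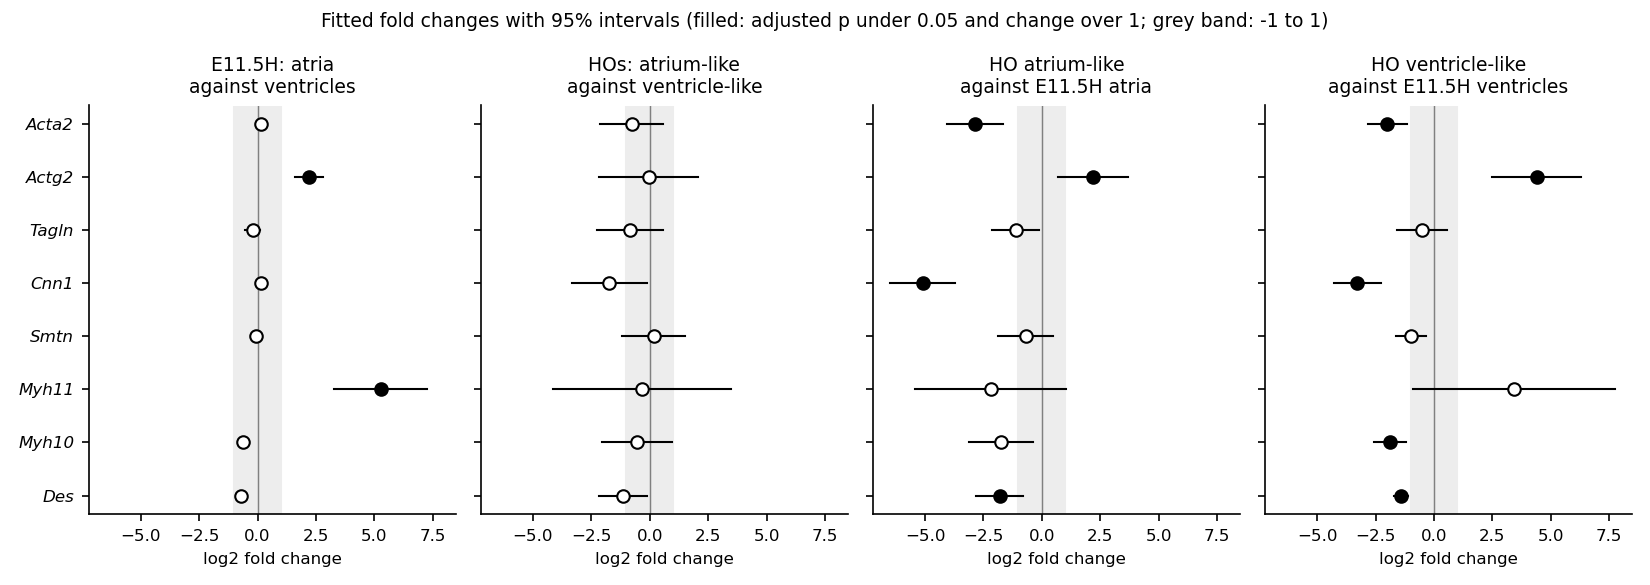
Log2 fold changes of the 8 genes from edgeR (x axis) with 95% intervals, 1 panel per comparison, filled where called and open where not. For each gene the interval is narrower between embryonic chambers than between HO parts, and in both comparisons with E11.5H Cnn1 lies lowest and Actg2 is called higher. Scaled to cardiomyocyte genes, the negative values of Acta2, Tagln, Smtn, Myh10 and Des in both comparisons with E11.5H turn positive. So does that of Myh11 in atrium-like parts against atria.

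Atrium-like parts were compared with atria, and ventricle-like parts with ventricles, to see how far HOs match the embryonic chambers. Of 8 members, 4 were called between atrium-like parts and atria (Acta2, Cnn1 and Des lower, Actg2 higher), where 24.8% of 15418 genes were called (8.81% lower and 16% higher). In ventricle-like parts 5 of 8 were called (Acta2, Cnn1, Myh10 and Des lower, Actg2 higher), where 18.9% of 15094 genes were (7.35% lower and 11.6% higher). In TMM-scaled CPM no member overlapped between HOs and the matching chamber, with 7 lower and 1 higher in the atrial and 6 lower and 2 higher in the ventricular comparison, where 54.1% (26.7% lower, 27.4% higher) and 51% (24.6% lower, 26.4% higher) of all genes did not overlap. On the adjusted p alone 6 members passed in the ventricular comparison, against 29.6% of genes. The median member difference was -1.79 in the atrial and -1.20 in the ventricular comparison, against 0.06 and 0.09 for all genes. The 2 comparisons share no library.

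Cardiomyocyte genes moved in the same direction. Of 16 genes such as Actc1, Tnnt2 and Ttn, 15 were called lower in atrium-like and 13 in ventricle-like parts, with medians of -3.86 and -2.71. Summed over the list, they reached 41549.5 to 51154 CPM in E11.5H, but only 1104 to 3425 CPM in the atrium-like and 3906 to 11806 CPM in the ventricle-like libraries. When libraries were scaled to these 16 genes in place of TMM, the median of all genes shifted to 3.99 in the atrial and 2.98 in the ventricular comparison. Acta2 then stood at 0.85 and 1.07, Des at 1.87 and 1.44, Myh10 at 1.80 and 1.12, Tagln at 2.59 and 2.58, Smtn at 2.87 and 1.94, and Cnn1 at -1.38 and -0.24. This scaling shifts all genes nearly alike, so a gene's place against the median of all genes carries over from TMM and tests nothing further. These 6 genes lay below that median, and Actg2 lay above it at 5.85 and 7.63. Of the members, only Cnn1 in atrium-like parts was still called lower (edgeR adjusted p = 0.0475). Called higher under this scaling were Tagln, Smtn, Myh10, Actg2 and Des in atrium-like parts. In ventricle-like parts they were Myh11, Tagln, Smtn, Actg2 and Des. Des thus went from called lower to called higher in both. Of all genes, 92.4% and 90.8% were called under this scaling in either direction. On the TMM scale, values of the epicardium and endothelial lists were mostly negative. Those of the gut epithelium, hepatocyte and visceral endoderm, fibroblast and mesenchyme, and macrophage lists were mostly positive. Among gut epithelium genes, 12 of 12 tested were called higher in atrium-like and 11 of 11 tested in ventricle-like parts. Of all genes, 8.81% were called lower in the atrial and 7.35% in the ventricular comparison (16% and 11.6% higher). Of 8 epicardium genes, 7 were called lower and 1 higher in atrium-like parts (median -3.37). In ventricle-like parts 1 was called lower and 1 higher (median -0.96). Of 10 endothelial genes, 9 had negative values in each comparison (medians -2.09 and -2.60), and 1 was called lower in each. The part of these cell types in the members' levels was not tested.

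Ratios within a library do not depend on such scaling. Actg2 over Acta2 lay between 0.0105 and 0.0155 in atria and between 0.00234 and 0.00377 in ventricles, whereas it lay between 0.329 and 0.469 in atrium-like and between 0.132 and 0.382 in ventricle-like parts. The actin pair thus shifted toward the visceral form in all 6 HO libraries, by 30.2-fold and 75.4-fold of the group means. Cnn1 over Tagln ranged from 0.653 to 0.940 in atria and from 0.520 to 0.677 in ventricles. It ranged only from 0.0303 to 0.0605 in atrium-like and from 0.0751 to 0.106 in ventricle-like parts. Cnn1 was thus low against Tagln as well as in level. RNA of Tagln and of its antisense gene cannot be told apart, which limits every ratio with Tagln. The ratio of Cnn1 over Tagln was also lower in all 3 atrium-like than in all 3 ventricle-like libraries. Myh10 over Myh9, the 2 widespread nonmuscle myosins, ranged from 4.70 to 7.21 in E11.5H, whereas HOs had 0.381 to 3.79.

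Against cardiac α-actin, Acta2 over Actc1 ranged from 0.123 to 0.127 in atria, and from 0.0816 to 0.0971 in ventricles. Atrium-like parts had 0.376 to 0.605, above all atria. Ventricle-like parts had 0.221, 0.420 and 0.0785, so that replicate 3 lay below all ventricles and the others above them. Des over Actc1 was at most 0.0402 in E11.5H and at least 0.0989 in HOs. Relative to Col1a1, a collagen of mesenchyme, Acta2 was at least 8.003 in E11.5H and at most 1.32 in HOs. Myh11 over Acta2 was at most 0.0146 in any library. Tagln over Acta2 was at most 0.301 in E11.5H and at least 0.593 in HOs.

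**Figure D3:**
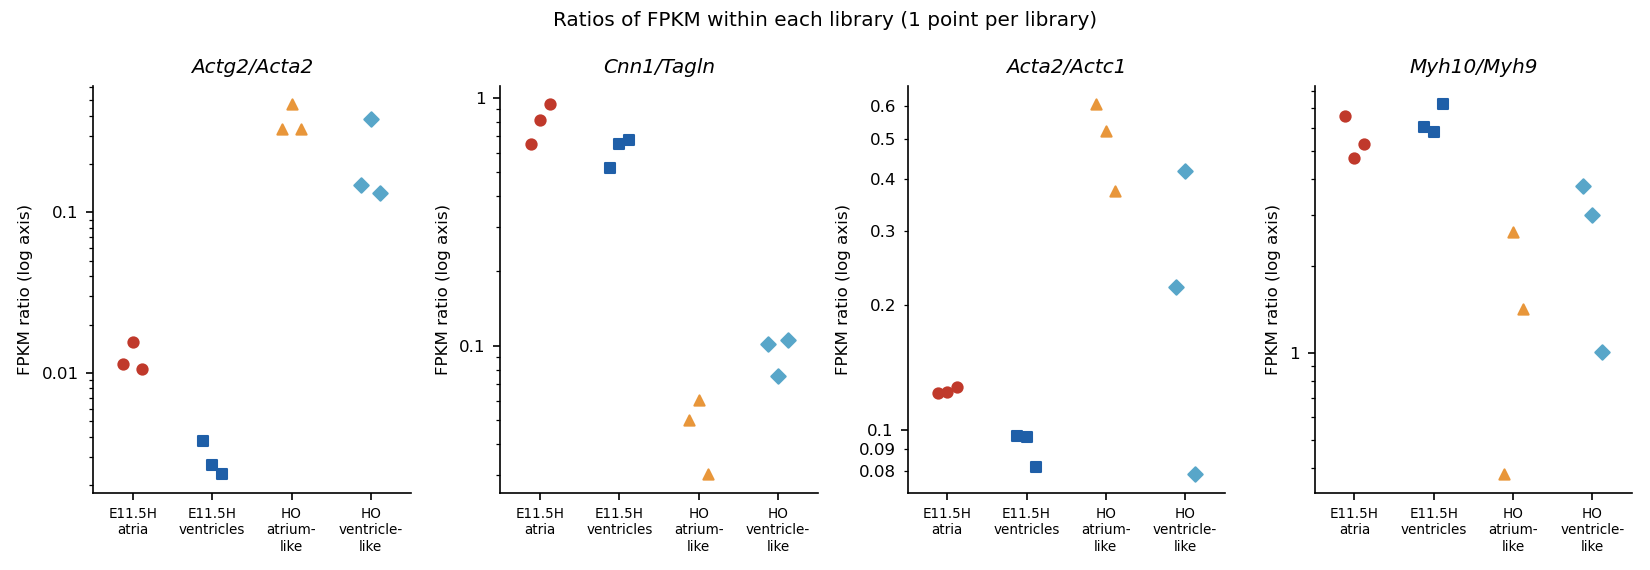
Ratios of FPKM within each of 12 libraries on log axes, 1 panel per gene pair and 1 point per library. Actg2/Acta2 is higher and Cnn1/Tagln lower in all 6 HO libraries than in all 6 E11.5H libraries, and Acta2/Actc1 of ventricle-like parts spreads from 0.0785 to 0.420.

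HO replicates differed in these genes together. Of the atrium-like libraries, replicate 2 was the highest for all 8 members and replicate 1 the lowest for 7. Of the ventricle-like libraries, replicate 3 was the lowest for 6 members (Acta2, Actg2, Tagln, Cnn1, Smtn and Myh10), although its 16 cardiomyocyte genes summed to 11806 CPM, the most of any HO library. Ordered by the members' summed level, the HO libraries were atrium-like 1 (468 CPM), atrium-like 3 (914), ventricle-like 3 (1169), atrium-like 2 (1740), ventricle-like 1 (2058) and ventricle-like 2 (2069). The 12 gut epithelium genes had the reverse order, at 9609, 8260, 5321, 2277, 1954 and 1115 CPM, and so had the 12 hepatocyte and visceral endoderm genes, at 38875, 14462, 13184, 1779, 869 and 265 CPM. In E11.5H these lists summed to at most 178 and 44.4 CPM. The 10 fibroblast and mesenchyme genes summed to 5453, 6064, 2760, 15596, 27358 and 9983 CPM in the same order of libraries. The part of these lists in the members' levels was not tested.

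The other 56 genes of 6 smooth muscle lists were read for how widely the apparatus moved. Between embryonic chambers 4 of 51 tested were called, all higher in atria, where 4.9% of all genes were called (2.92% higher in atria). They were Foxf1, a transcription factor of visceral mesenchyme (4.996, SE 0.999), Lmod1, the smooth muscle leiomodin (1.77, SE 0.35), Gucy1a1, a subunit of the nitric oxide receptor (1.51, SE 0.09), and Itga8, the integrin α8 chain (1.18, SE 0.20), all with edgeR adjusted p of 0.00827 or lower. Between HO parts 0 of 55 were called, and 0% of all genes. In atrium-like parts against atria 7 were called higher and 11 lower of 54, where 16% and 8.81% of all genes were. In ventricle-like parts against ventricles 8 were called higher and 6 lower of 55, where 11.6% and 7.35% of all genes were. Their medians were -0.54 and -0.20, against 0.06 and 0.09 for all genes.

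Among the genes that fell were Kcnmb1, the smooth muscle subunit of the BK potassium channel, and Synpo2, an actin-bundling protein of muscle. Kcnmb1 had 6.37 to 7.85 FPKM in atria against 0, 0.0493 and 0 FPKM in atrium-like parts, and 3.98 to 5.71 FPKM in ventricles against 0.133 to 0.292 FPKM in ventricle-like parts (ventricular log2 fold change -4.57, SE 0.39, edgeR adjusted p = 0.00167). Synpo2 fell by 4.12 in atrium-like and by 1.80 in ventricle-like parts (adjusted p = 0.00373 and 0.0155). Among the genes that rose was Mylk, the kinase that starts smooth muscle contraction by phosphorylating the light chain (2.17 and 2.25, adjusted p = 0.0133 and 0.0207). Npnt, a matrix ligand of integrin α8, rose in ventricle-like parts (2.004, adjusted p = 0.0308). In atrium-like parts its mean was lower than in atria, at 5.85 against 11.8 FPKM. Myh14, a nonmuscle myosin of epithelia, had at most 0.00936 FPKM in atria and 53.1, 6.70 and 23.3 FPKM in atrium-like parts.

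Of 6 genes of gut wall mesenchyme, 2 of 4 tested were called higher in atrium-like parts and 2 of 5 tested in ventricle-like parts. Of all genes, 16% and 11.6% were called higher there. Foxf1 had 31.8, 14.3 and 18.9 FPKM in atrium-like parts against 5.13, 2.47 and 0.775 FPKM in atria (3.17, SE 0.75, edgeR adjusted p = 0.023), and 7.88, 16.2 and 7.81 FPKM in ventricle-like parts against 0.219, 0 and 0.0279 FPKM in ventricles (6.89, SE 1.18, adjusted p = 0.0102). Foxf2 rose in atrium-like parts (4.14, adjusted p = 0.023), and Nkx2-3 rose in ventricle-like parts (5.58, adjusted p = 0.0416) at no more than 1.69 FPKM. Barx1 had negative values in both (-2.22, adjusted p = 0.063, and -1.31, adjusted p = 0.293), and no other gene of the list was called in either comparison. Their part in the level of Actg2 was not tested.

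**Figure D4:**
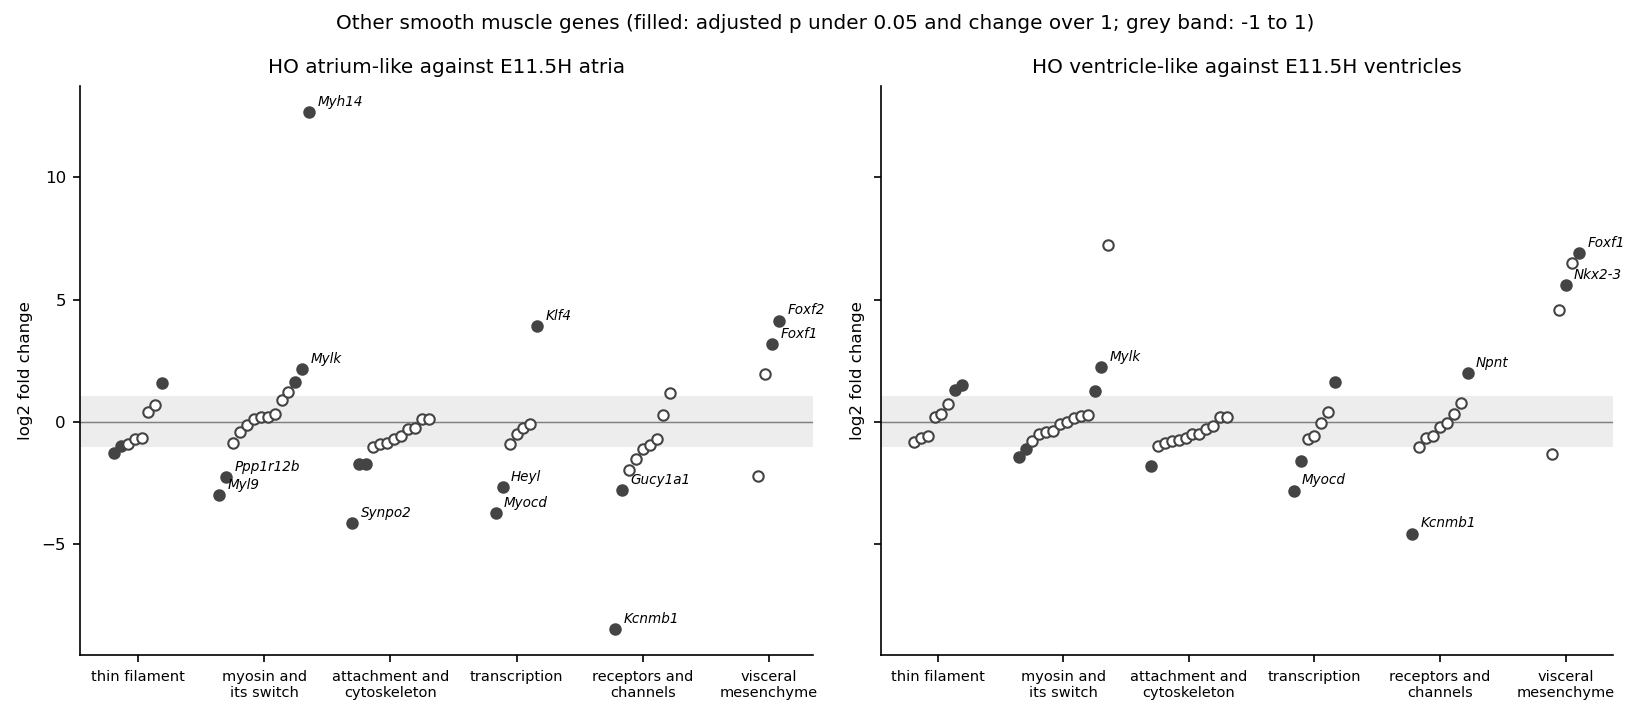
Log2 fold changes from edgeR (y axis) of the other smooth muscle genes tested, grouped by list (x axis), for atrium-like parts against atria and ventricle-like parts against ventricles. Filled points were called and those beyond 2 are named, with Kcnmb1 lowest in both panels and Foxf1 among the highest.

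Regulators of the set were listed in full. Myocd, the coactivator of serum response factor in heart and smooth muscle, had 14.1, 18.8 and 17.2 FPKM in atria and 20.5, 27.6 and 20.9 FPKM in ventricles of E11.5H. It had 0.751, 1.76 and 0.919 FPKM in atrium-like and 4.14, 2.24 and 4.07 FPKM in ventricle-like parts, far below either chamber. Myocd fell 13.3-fold (-3.73, SE 0.30, edgeR adjusted p = 0.00153) and 7-fold (-2.81, SE 0.29, adjusted p = 0.00258). Heyl, a Notch target of vascular smooth muscle, fell by 2.68 (adjusted p = 0.0226) and by 1.61 (adjusted p = 0.0387).

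Klf4, a factor that represses smooth muscle genes and is also a gene of stem cells and epithelia, rose by 3.91 (adjusted p = 0.00201) in atrium-like and by 1.62 (adjusted p = 0.0112) in ventricle-like parts. Srf itself, the factor that binds CArG boxes, passed on the edgeR adjusted p alone, with -0.90 (0.0324) and -0.69 (0.048). Values of Mrtfa were -0.24 and -0.05, of Mrtfb -0.07 and 0.40, and of Gata6 -0.50 and -0.57, with edgeR adjusted p of 0.0586 or higher for these 3 genes.

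The members' patterns over the 12 libraries were alike for 6 genes. Pearson's r of log2(CPM + 1) between pairs of Acta2, Tagln, Cnn1, Smtn, Myh10 and Des was 0.769 to 0.987 over 12 libraries. Actg2 had r of -0.671 to -0.275 with these 6 and 0.340 with Myh11, and Myh11 had -0.129 to 0.124 with the 6. The libraries form 4 groups, so that these values mostly restate group differences. The genes most like each member, of 12069 genes with a mean of at least 5 CPM, were Dynll1, Rbmxl1 and Fancl for Acta2 and Nap1l4, Kcne1l and Gja5 for Cnn1 (r 0.988 to 0.992). Des was closest to Srl, Nup88 and Popdc2 (r 0.984 to 0.986), of which Srl and Popdc2 are genes of striated muscle. Tagln was closest to Diablo, Hpf1 and Csrp1 (r 0.963 to 0.973), Smtn to Kirrel, Cenph and Orc6 (r 0.962 to 0.970), and Myh10 to Ltbp1, Tmem108 and Rrm1 (r 0.979 to 0.982). The nearest to Actg2 were Islr, Flywch2 and Rnd3 (r 0.970 to 0.973). Sln, Zfp672 and Shox2 were nearest to Myh11 (r 0.885 to 0.913), and Sln and Shox2 are atrial and venous pole genes of the heart.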

How the data were processed

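RNA-seq was read from 12 libraries (4 groups of 3). Per the submitters' processing notes, reads were mapped to mm10 with STAR (version not given in the sources used here), and the authors deposited expected counts (fragments per gene, unnormalized) and FPKM values, which carry no correction for composition. The counting tool, annotation release and use of strand are not given in the sources used here. Of the deposited count values, 23.8% were not whole, and all were rounded. Each pair of groups was tested with edgeR 4.0.16 under R 4.3.3 (quasi-likelihood test, TMM, genes kept by filterByExpr at a minimum count of 10, p-values adjusted by Benjamini-Hochberg over all genes tested), and the interaction was fitted over all 12 libraries. CPM were scaled by TMM factors. DESeq2 1.42.0, limma 3.58.1 on log2(FPKM + 1 or 0.1), other scalings, no filter, a block on the replicate number and omission of each library in turn were alternatives. The scripts were tested on simulated data. Marker list sums are TMM-scaled CPM.

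Named were all 8 members, from 6 other smooth muscle lists the 3 largest rises and falls among called genes with at least 5 CPM and no overlap, the transcription list, and the 3 genes nearest to each member by Pearson's r of log2(CPM + 1). Genes of the ratios and those of counts of 5 or fewer were named too, and Pcsk7 was named for its overlap. The members and lists were chosen with earlier results of these data known. The near-match of the CArG box and the 250-base window were chosen after the data were seen. Replicates with the same number did not deviate together in every pair. Plots used matplotlib 3.10.9 (Python 3.11.15).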

Additional observations from a re-analysis of the deposited data

Results flagged for a closer look

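Myh11 of HOs lay below the embryonic level in 1 chamber and above it in the other, although neither difference passed (-2.18, edgeR adjusted p = 0.254, and 3.43, adjusted p = 0.193). Every atrium-like library (0 to 0.845 FPKM) was below every library of atria (1.96 to 3.83 FPKM), and every ventricle-like library (0.434 to 1.26 FPKM) was above every library of ventricles (0 to 0.198 FPKM). The test of the difference between the 2 changes gave -5.62 on the log2 scale (SE 2.40, unadjusted p = 0.0402) and did not pass after adjustment over all genes (edgeR adjusted p = 0.411, and 0.344 with the replicate number as a block). Leaving out each library gave adjusted p-values of 0.229 to 0.623. Without ventricle replicate 1, the only ventricle library with fragments, the value was -12.47.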

How the results depend on the processing

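Scaling to 16 cardiomyocyte genes changed most directions. It gave Tagln 0.29 and Smtn 0.44 between atria and ventricles. Between HO parts it gave Acta2 0.44, Myh11 1.64, Tagln 0.31, Myh10 0.57, Actg2 0.94 and Des 0.25. For atrium-like parts against atria it gave Acta2 0.85, Myh11 2.07, Tagln 2.59, Smtn 2.87, Myh10 1.80 and Des 1.87, and for ventricle-like parts against ventricles Acta2 1.07, Tagln 2.58, Smtn 1.94, Myh10 1.12 and Des 1.44. In the difference of chamber differences it gave Tagln 0.0137 and Des 0.43. The other smooth muscle genes called under it were 13 between atria and ventricles, 3 between HO parts, 48 in the atrial and 50 in the ventricular comparison. Of all genes, 11.7%, 9.74%, 92.4% and 90.8% were called in these 4 comparisons. These changes follow from its construction, which sets the cardiomyocyte genes level.

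Between atria and ventricles, DESeq2 called 1 member, the adjusted p alone 4 and the fit over all 12 libraries 0. Other smooth muscle genes called were 2 with limma on log2(FPKM + 1), 22 on the adjusted p alone and 0 in the fit over all 12 libraries. Of all genes, DESeq2 called 6.15%, this limma fit 2.66%, the adjusted p alone 13.6% and the fit over all 12 libraries 0.182%. DESeq2 called 1 other smooth muscle gene between HO parts and 5 in the difference of chamber differences, where it called 0.357% and 2.69% of all genes. The adjusted p alone passed 22 in the ventricular comparison, and 29.6% of all genes. Smtn between HO parts was -0.13 and -0.17 with limma at pseudocounts of 1 and 0.1, and in the difference of chamber differences Smtn was -0.11 and -0.15 and Myh10 -0.30 and -0.38. The cause of these changes was not tested.

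Leaving out each library moved the share of all genes called from 10.3% to 34.7% in the atrial and from 7.0% to 23.9% in the ventricular comparison. It gave 2 to 6 members and 9 to 30 other smooth muscle genes called in the atrial comparison, 3 to 6 and 4 to 16 in the ventricular one, and 0 to 1 and 0 to 3 in the difference of chamber differences. The ranges between HO parts were -1.01 to 1.003 for Actg2, -0.21 to 0.58 for Smtn and -0.84 to 0.28 for Myh11, and for the difference of chamber differences -0.11 to 0.69 for Smtn and -0.49 to 0.54 for Myh10. Of the 24 nearest genes, 20 were shared under a pseudocount of 0.1.

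Same-numbered replicates did not deviate together in every pair (r 0.01 to 0.07 in E11.5H, -0.07, 0.62 and 0.41 between HO parts), so that pairing was not established. The methods describe 3 HOs that were each dissected into both parts, but the labels do not say whether a number marks 1 HO. In all 3 same-numbered pairs of HO parts, Acta2, Cnn1 and Des had lower FPKM in the atrium-like part. For Des any pairing gives this order, since its HO parts did not overlap. Actg2, Tagln, Smtn, Myh11 and Myh10 differed in direction between pairs. The share of all genes with 1 direction in all pairs was not counted. With the replicate block 2, 0, 3, 6 and 0 members were called in the 5 comparisons and 621, 0, 2806, 2003 and 5 genes, and Actg2 was 0.0658 between HO parts. Actg2 (atrial) lost and Smtn (ventricular, -1.06) gained a call. With 3 replicates a group and the spread between HO parts, wide intervals limit what these comparisons can show.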
